A study of Homo sapiens with 2 samples.

Results

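The miR-15/16 family is a group of microRNAs (miRNAs) that share the bases 2 to 8 of their mature strand, the seed that guides an Argonaute protein to its targets. Its 6 members here were chosen by name (hsa-miR-15a-5p, hsa-miR-15b-5p, hsa-miR-16-5p, hsa-miR-195-5p, hsa-miR-424-5p and hsa-miR-497-5p), and all 6 had reads among the 407 miRNAs counted. They were measured in small RNA from BT549, a human breast cancer line. Its cells overexpressed SNHG15, a long non-coding RNA, with MS2 hairpins attached, which are RNA loops that the MS2 coat protein (MCP) binds. Both groups have this same genotype and differ in the resin. Lysate met either amylose resin coated with MBP-MCP, a fusion of MCP to maltose binding protein (the pulldown), or amylose resin with no coat (the control). Each resin gave 1 library. Differences therefore have no replicate check, and no p-value was computed. The intervals cover counting error only, with each read taken as independent.

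The comparison asks which miRNAs stay with SNHG15. Because the coat protein is on one resin alone, miRNAs bound to the protein and miRNAs bound to SNHG15 cannot be told apart. The labels do not say how the SNHG15-MS2 cells were made or whether they are 1 clone. In all, 202560 miRNA reads were counted in the pulldown and 111414 in the control. Of 5 miRNAs listed for mesenchymal breast cancer lines, all 5 passed 20 reads, with 21120 reads in the pulldown and 12609 in the control. As a share of the library their sum was lower in the pulldown, a ratio of 0.921 (0.901 to 0.942). Single members went both ways, such as miR-221-3p at 1.24 and miR-125b-5p at 0.873. Of 6 epithelial miRNAs, 1 was analysed here, miR-200a-3p with 1 read in each library.

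A miRNA seed pairs with complementary letters in a target RNA, and members of a seed family can therefore share targets. The miR-15/16 family is best known for repressing cyclin genes, CDK6 and the survival gene BCL2, which slows the cell cycle and favours apoptosis. The cluster of miR-15a and miR-16-1 lies in a region that is often deleted in chronic lymphocytic leukaemia. In many cell types miR-16-5p is among the most abundant miRNAs.

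The mature sequences, from RefSeq (GRCh38.p14), are shown because they set the family and decide how well reads of one member can be told from another. The seed is in capitals.
miR-16-5p: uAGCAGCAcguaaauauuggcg
miR-195-5p: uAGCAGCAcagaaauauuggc
miR-15a-5p: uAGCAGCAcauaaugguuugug
miR-15b-5p: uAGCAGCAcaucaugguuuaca
miR-497-5p: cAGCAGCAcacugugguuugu
miR-424-5p: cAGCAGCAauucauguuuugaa
All 6 carry AGCAGCA as the seed, and the unbroken stretch that all 6 share ends at base 8. They are 21 or 22 bases long, so their read numbers were compared without a length correction. Other differences in how well each strand enters a library were not corrected, and the levels are those on the resins. The nearest pair is miR-16-5p and miR-195-5p, 3 edits apart: G10A and U11G, counted from the 5′ end with the base of miR-16-5p first, and the last base, which miR-195-5p lacks. The next nearest is miR-15a-5p and miR-15b-5p, at 4 edits, and the farthest is miR-16-5p and miR-497-5p, at 11. The labels do not say how reads that match more than 1 miRNA were assigned.

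Of the 357 miRNAs with names in the count table, 321 had a sequence in the RefSeq table, and the 6 members were those with this seed. miR-6838-5p has the same seed letters at the same positions but was not analysed here. A pair of others carry the same letters 1 base earlier, at positions 1 to 7, in capitals here.
miR-103a-3p: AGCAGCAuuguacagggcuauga
miR-107: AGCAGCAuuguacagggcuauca
The hairpins of miR-16-5p are shown because a single mature strand comes from both, so its reads cannot be assigned to a locus. The arms are in capitals, the 5p arm first.
MIR16-1: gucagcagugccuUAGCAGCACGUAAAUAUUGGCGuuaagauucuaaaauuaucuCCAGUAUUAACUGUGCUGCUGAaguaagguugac
MIR16-2: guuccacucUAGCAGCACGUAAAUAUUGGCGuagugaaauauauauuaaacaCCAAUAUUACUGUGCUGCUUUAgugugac

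The 6 members come from 7 hairpins, whose positions are those of RefSeq on GRCh38.p14 and are the same in GENCODE 29. MIR16-1 lies on chromosome 13 from 50048973 to 50049061, minus strand, 57 bases from MIR15A (50049119 to 50049201). Both are within the non-coding gene DLEU2, MIR16-1 in an intron and MIR15A partly over an exon. MIR15B lies on chromosome 3 from 160404588 to 160404685, plus strand, 59 bases from MIR16-2 (160404745 to 160404825). Both are in introns of SMC4, which encodes a condensin subunit. MIR195 (7017615 to 7017701) and MIR497 (7017911 to 7018022) lie on the minus strand of chromosome 17, in an exon of MIR497HG. MIR424 lies on chromosome X from 134546614 to 134546711, minus strand, and partly overlaps MIR503HG.

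The members spanned more than 3 orders of magnitude on both resins, and miR-16-5p made up nearly all of the family. miR-16-5p had 34274 reads in the pulldown and 17015 in the control, 16.9% of the pulldown library (95% interval 16.8 to 17.1) and 15.3% of the control library (15.1 to 15.5). It ranked first among the 407 miRNAs on both resins. Its share of the family's own reads was 98.3% in the pulldown and 97.6% in the control. Shares and ratios carry exact Clopper-Pearson intervals at 95%.

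The other 5 members were far lower. miR-15b-5p, made from the same cluster as MIR16-2, had 446 and 318 reads, or 2202 and 2854 reads per 1000000 reads of the library (RPM). miR-16-5p, from MIR16-1 and MIR16-2 together, had 76.8 times as many reads in the pulldown and 53.5 times in the control. The part from MIR16-2 alone is not known. miR-15a-5p, from the chromosome 13 cluster, had 79 and 56 reads (390 and 503 RPM). miR-424-5p, which is induced during monocyte differentiation, had 39 and 33 reads (193 and 296 RPM). miR-497-5p and miR-195-5p, which come from a single cluster and are often low in carcinomas, had 19 and 11 reads (93.8 and 98.7 RPM) and 13 and 6 reads (64.2 and 53.9 RPM).

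The order of levels was the same on both resins: miR-16-5p, miR-15b-5p, miR-15a-5p, miR-424-5p, miR-497-5p, miR-195-5p. Counting intervals of the first 3 were apart in both libraries. miR-15a-5p and miR-424-5p were apart in the pulldown (0.0309% to 0.0486% against 0.0137% to 0.0263% of reads) but overlapped in the control, where they were 0.0380% to 0.0653% and 0.0204% to 0.0416%. miR-424-5p and miR-497-5p overlapped in the pulldown, where the latter was 0.00565% to 0.0146%, and were apart in the control, where it was 0.00493% to 0.0177%. miR-497-5p and miR-195-5p overlapped in both libraries and could not be ordered at this depth.

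**Figure D1:**
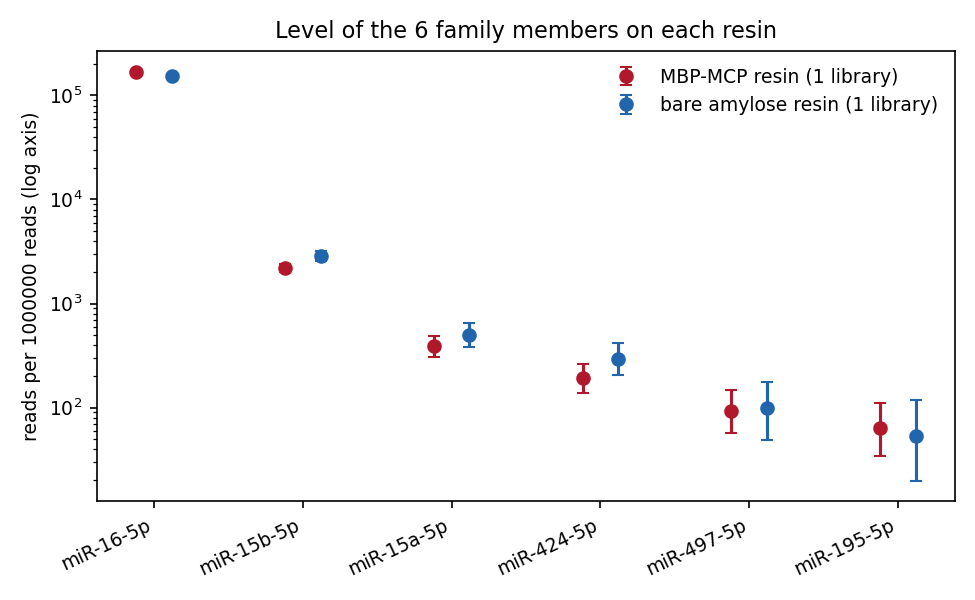
Reads per 1000000 reads (vertical, log axis) of the 6 members in the library from MBP-MCP resin (red) and from bare amylose resin (blue), with exact 95% counting intervals. miR-16-5p sits at 169204 and 152719, and the next member, miR-15b-5p, at 2202 and 2854.

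Between the resins, the members went in both directions and by small steps. miR-16-5p took a 1.11-fold larger share in the pulldown (1.09 to 1.13), a log2 ratio of 0.15. miR-15b-5p took a share 1.30-fold smaller (1.12 to 1.50), a log2 ratio of −0.37. These were the 1 member with an interval above 1 and the 1 with an interval below 1. Over every miRNA in the table, 6.63% had an interval above 1 and 13% an interval below 1. Among the 161 with at least 20 reads in a library the shares were 11.2% and 23.6%. With total reads, a count of 1 of 6 each way sets the family near that background. The background itself turns with the scaling: of the 161, 18 lay above 1 and 38 below with total reads. TMM factors put 36 above and 15 below, and DESeq2 size factors put 44 above and 12 below. The family had 1 above and 0 below with both of these factors.

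The remaining 4 members had intervals that include 1. miR-424-5p was at 0.650 of its control share (0.398 to 1.07), a log2 ratio of −0.61, the lowest of the family. miR-15a-5p was at 0.776 (0.544 to 1.11), a value next to the 0.771 of miR-15b-5p (0.667 to 0.894). miR-497-5p had a ratio of 0.950 (0.430 to 2.21) and miR-195-5p one of 1.19 (0.423 to 3.82). The 0.771 of miR-15b-5p lies inside the intervals of both, so a change of that size was not detectable in them at this depth. No member reached 2-fold, a size passed upward by 2.48% and downward by 3.11% of the 161 miRNAs.

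**Figure D2:**
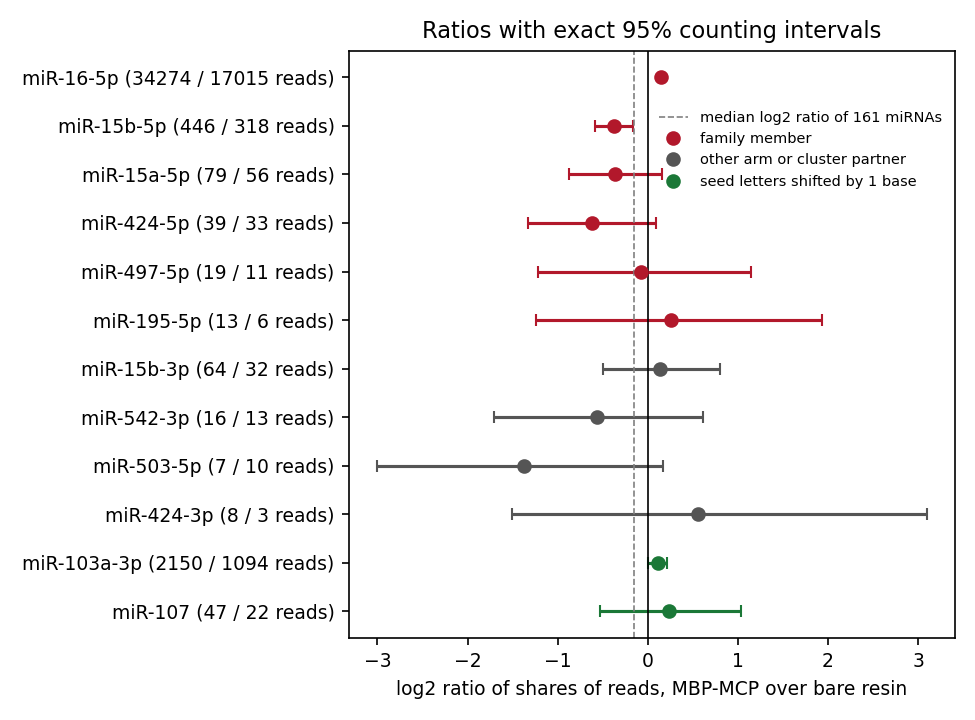
Log2 ratio of the shares of reads (horizontal, MBP-MCP over bare resin), with exact 95% intervals and the reads on each resin. Drawn are the 6 members (red) and 4 of the 9 other arms or cluster partners analysed (grey). The pair whose seed letters are shifted by 1 base is in green. miR-450b-5p, with 9 and 2 reads and a ratio of 2.48 (0.512 to 23.5), is not drawn. The interval of miR-16-5p lies above 0 and that of miR-15b-5p below it, and the dashed line marks −0.16, the median of 161 miRNAs.

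Over the 6 members the median log2 ratio was −0.22, beside −0.16 over the 161 miRNAs, and 3 members lay above the latter and 3 below. miR-16-5p stood 0.30 above that median, miR-195-5p 0.40 and miR-497-5p 0.08. miR-15a-5p stood −0.21 from it, miR-15b-5p −0.22 and miR-424-5p −0.46. The interval of miR-15b-5p ended at −0.162, next to the median of −0.156. By log2 ratio from the top, miR-16-5p ranked 38 among the 161 miRNAs, and 7 among the 33 with at least 1000 reads in both libraries together, which ran from −0.72 to 0.68. miR-15a-5p ranked 112, miR-15b-5p 116 and miR-424-5p 141 of 161. miR-195-5p and miR-497-5p fell short of 20 reads and have no rank.

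The ratio also varied with abundance over all miRNAs. The median log2 ratio was −0.41 for the 100 miRNAs with 20 to 99 reads in both libraries together, −0.16 for the 65 with 100 to 999, −0.01 for the 26 with 1000 to 9999 and 0.01 for the 7 with 10000 or more. miR-16-5p lay 0.15 against the 0.01 of its range, whose lowest and highest were −0.20 and 0.31. miR-15a-5p and miR-15b-5p were at −0.36 and −0.37, beside a lower quartile of −0.37 in theirs, and miR-424-5p at −0.61 beside −0.62. The part of abundance in the difference between miR-16-5p and the others was not tested.

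**Figure D3:**
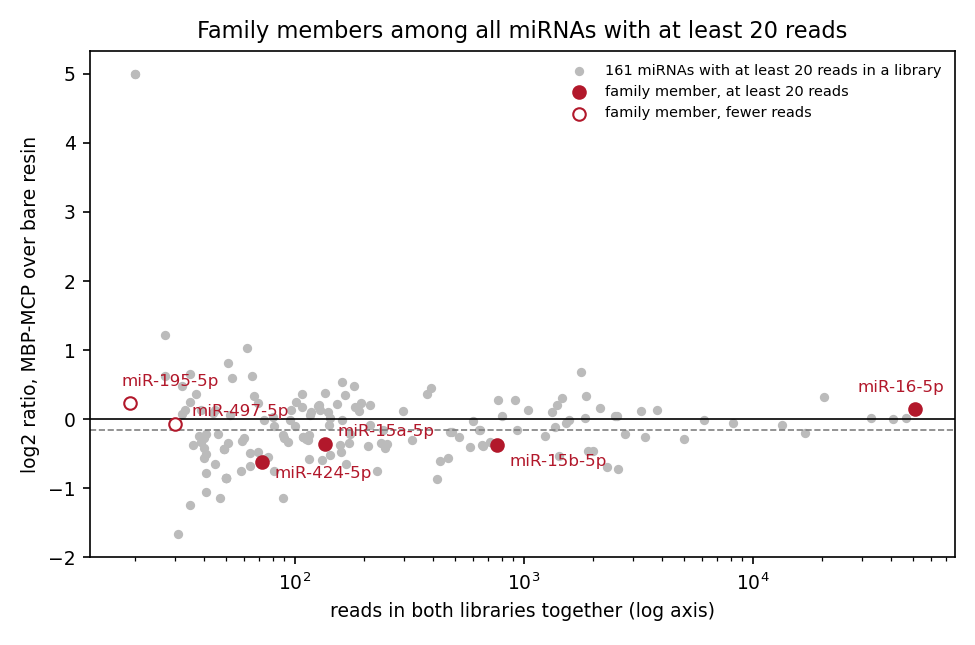
Log2 ratio (vertical, MBP-MCP over bare resin) against the reads of both libraries together (horizontal, log axis) for 161 miRNAs (grey) and the family (red, open where a member had under 20 reads in each library). The members lie within the spread of miRNAs of like abundance, and the dashed line marks the median of −0.16. The 2 predicted miRNAs with a control value of 0 share the topmost point.

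Summed over the family, the share was 17.2% of the pulldown reads (17.1 to 17.4) and 15.7% of the control reads (15.4 to 15.9), a ratio of 1.10 (1.08 to 1.12). This sum is in effect miR-16-5p. The other 5 members together had 596 and 424 reads, 0.294% (0.271 to 0.319) and 0.381% (0.345 to 0.418), a ratio of 0.773 (0.681 to 0.878). Of those, miR-15b-5p had 446 and 318 reads, so the sum of the 5 is mostly that member. With total reads the direction of the 5 summed was opposite to that of the whole sum. By itself miR-195-5p was on the other side, at 1.19 (0.423 to 3.82). Under TMM factors the ratio of the 5 was 0.885 (0.780 to 1.005) and under DESeq2 size factors 0.937 (0.826 to 1.06), intervals that include 1.

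A ratio of members within a library does not depend on how libraries are scaled. There were 57.5 reads of miR-16-5p for each read of the other 5 in the pulldown and 40.1 in the control, a ratio of ratios of 1.43 (1.26 to 1.63). Against miR-15b-5p alone it was 1.44 (1.24 to 1.66), against miR-15a-5p 1.43 (0.995 to 2.04) and against miR-424-5p 1.70 (1.04 to 2.78). Against miR-497-5p it was 1.17 (0.501 to 2.58) and against miR-195-5p 0.930 (0.290 to 2.62), with too few reads to place either. Of all 15 pairs of members, 2 had a 95% interval that excludes 1, both holding miR-16-5p. At the 99.7% level, which allows for 15 pairs, 1 remained, miR-16-5p against miR-15b-5p (1.15 to 1.79).

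The same measure over other miRNAs shows how common this is. The ratio of ratios of miR-16-5p to each of the 160 other miRNAs with at least 20 reads was taken with its interval. The whole interval lay above 1 for 38.8% of them and below 1 for 3.12%. For the rest the interval includes 1, so miR-16-5p was not told apart from them. For miR-15b-5p and miR-15a-5p there were 5.65 reads of the first per read of the second in the pulldown and 5.68 in the control, a ratio of ratios of 0.994 (0.672 to 1.46). Among the 10 pairs without miR-16-5p, 0 had an interval that excludes 1, and their intervals still allow differences of about this size or more.

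**Figure D4:**
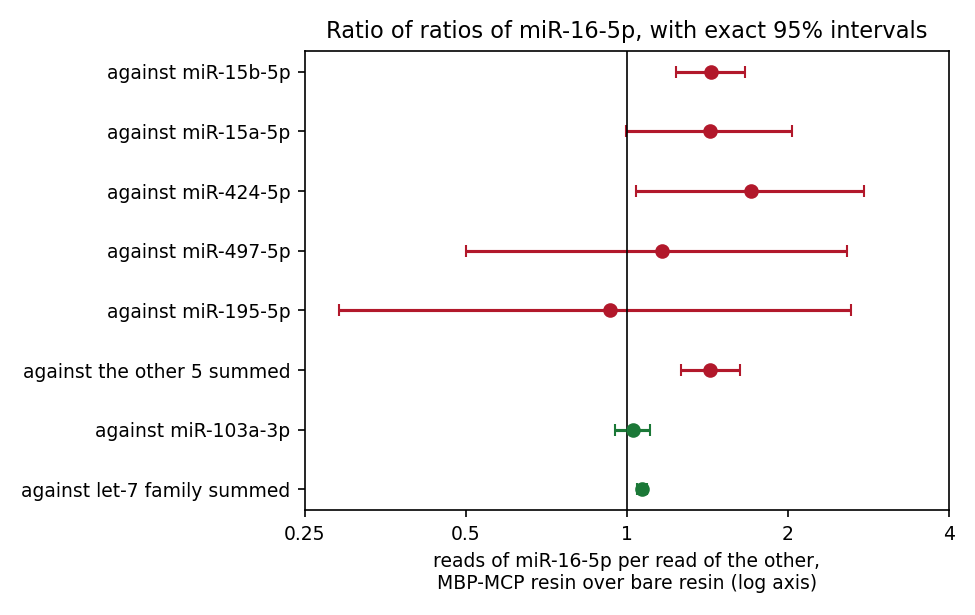
Reads of miR-16-5p per read of each other member, of the other 5 summed (red), of miR-103a-3p and of the let-7 family (green), in the MBP-MCP library over the bare resin library (log axis), with exact 95% intervals. The value against the other 5 summed is 1.43, and that against miR-103a-3p, 1.02, has an interval across 1.

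A scaling shifts every log2 ratio by the same amount, so all members moved together. The median of the 161 miRNAs rose by 0.20 with TMM factors, by 0.28 with DESeq2 size factors and by 0.12 with totals without the 5 most abundant miRNAs. miR-16-5p was above 0 under every scaling tried, from 0.14 to 0.43 on the log2 scale, and its interval stayed above 1. miR-15b-5p was below 0 under every one, from −0.38 to −0.10. Its interval came to include 1 with TMM factors (ratio 0.883, 0.763 to 1.02) and with DESeq2 size factors (0.935, 0.808 to 1.08). miR-497-5p changed sign, from −0.07 with total reads to 0.12 with TMM factors, 0.21 with DESeq2 size factors and 0.05 without the 5 most abundant. The family median was 0.06 with DESeq2 size factors. By construction its distance from the median of all 161 was the same under each scaling, 0.06 below.

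**Figure D5:**
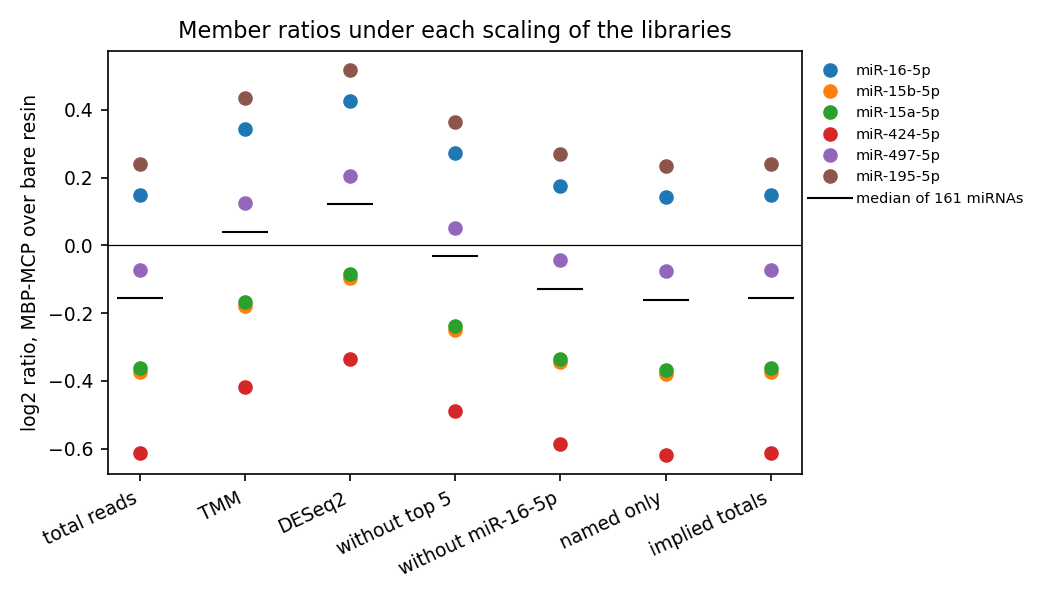
Log2 ratio (vertical, MBP-MCP over bare resin) of each member under 7 ways to scale the libraries (horizontal), with the median of 161 miRNAs as a black bar. All members shift with the bar, and miR-497-5p is the one that crosses 0.

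The other arms of the hairpins were sparse. Of 7 such strands, 4 were analysed here. miR-15b-3p, the other arm of MIR15B, had 64 and 32 reads, a ratio of 1.10 (0.709 to 1.74). It made up 12.5% of the hairpin's reads in the pulldown (9.80 to 15.7) and 9.14% in the control (6.34 to 12.7). The ratio of ratios of its 3p to its 5p strand was 1.43 (0.894 to 2.31), so the lower share of miR-15b-5p was not shown to differ from that of its own other arm. miR-424-3p had 8 and 3 reads, 17.0% (7.65 to 30.8) and 8.33% (1.75 to 22.5) of its hairpin's reads. miR-195-3p had 0 and 2 reads.

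miR-16-2-3p, the arm that belongs to MIR16-2 alone, had 7 reads in the pulldown and 0 in the control. With 3 reads in place of the 0, its share was at least 1.28-fold higher in the pulldown, but the counting interval of the ratio starts at 0.793. It came to 2.04 reads per 10000 reads of miR-16-5p in the pulldown. In the authors' deposited table it is among 16 miRNAs called higher and 10 called lower, with an edgeR p of 0.0336 and an adjusted p of 0.441. The call for miR-16-2-3p is higher. No member of the family is called there, and the calls cover only those 16 and 10 of all 407 miRNAs. The smallest adjusted p of a member in the authors' deposited edgeR table is 0.698, for miR-16-5p. These edgeR values also rest on 1 library per resin, with no replicates to measure spread.

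The cluster that holds MIR424 on chromosome X gave further low counts. Of 6 listed partners, 5 were analysed here. miR-503-5p, whose seed differs from that of the family in its last base, had 7 and 10 reads (ratio 0.385, 0.124 to 1.12). miR-542-3p had 16 and 13 reads (0.677, 0.305 to 1.53) and miR-450b-5p had 9 and 2 (2.48, 0.512 to 23.5). miR-503-3p had 2 and 0 reads, and miR-542-5p 0 and 3. All 9 strands of the arms and clusters, in sum, had 113 and 65 reads, a ratio of 0.956 (0.699 to 1.32). None had an interval apart from 1, and 1 of the 9, miR-15b-3p, reached 20 reads.

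The miRNAs with shifted seed letters, miR-103a-3p and miR-107, reside in introns of pantothenate kinase genes and overlap the family in targets. miR-103a-3p had 2150 and 1094 reads, a ratio of 1.08 (1.005 to 1.16), and miR-107 had 47 and 22 (1.18, 0.694 to 2.05). miR-16-5p did not separate from miR-103a-3p, at 15.9 reads per read in the pulldown and 15.6 in the control, a ratio of ratios of 1.02 (0.950 to 1.11). The other 5 members summed did separate from the sum of miR-103a-3p and miR-107, with a ratio of ratios of 0.714 (0.617 to 0.827). That value rests mostly on miR-15b-5p, with 446 of the 596 reads in the pulldown and 318 of the 424 in the control. Against the 9 let-7 strands summed, which held 47.0% and 45.3% of the reads, miR-16-5p had a ratio of ratios of 1.07 (1.04 to 1.09).

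The log2 ratios nearest to the 0.15 of miR-16-5p, among 32 other miRNAs with at least 1000 reads, were those of miR-30a-5p (0.14), miR-25-3p (0.16) and miR-125a-5p (0.13). Likeness here is the difference in log2 ratio over 2 libraries. The value was 0.010, 0.016 and 0.018 in turn. miR-15b-5p had too few reads for the same search.

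Markers of blood cells were counted because miR-16-5p is also abundant in red cells. Of 4 erythroid miRNAs 3 were analysed, with 135 and 65 reads in sum (666 and 583 RPM, ratio 1.14, 0.844 to 1.56). Of these reads miR-486-5p had 133 and 62, and miR-144-3p and miR-144-5p had 2 or fewer in each library. miR-451a was not analysed here. Of 4 leukocyte miRNAs 2 were analysed, with 14 and 12 reads in sum. The part of blood cell RNA in the level of miR-16-5p was not tested.

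The letters complementary to the shared seed were searched in SNHG15, the tagged RNA, since a seed match is a way for a family member to pair with it. The searches were for TGCTGCT, the complement of bases 2 to 8, and for GCTGCT inside it, the complement of bases 2 to 7, in the sense strand. Of the 10 SNHG15 transcripts in GENCODE 29, 0 held either motif. Among 945 lincRNA transcripts within 10% of the length of SNHG15-203 (982 bases), 13.9% held TGCTGCT and 34.7% held GCTGCT. That says only that these letters are not in these sequences. Pairing without an exact seed match was not searched. The labels do not name the isoform that was tagged, and the MS2 hairpins were not searched.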

How the data were processed

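Small RNA from MBP-MCP resin and from bare amylose resin was sequenced, 1 library each, grouped by the resin in the labels. The kits were mirVana for extraction and QIAseq miRNA for libraries, per the labels' protocols. Per the submitters' processing notes, the build is GRCh38. The aligner, the miRNA release and whether molecular identifiers were used were not given in the sources used here. Raw read counts of 407 miRNAs were deposited by the authors, 357 named and 50 numbered predictions. They also deposited RPM values (headed Tpm), log2 fold changes, and p-values with adjusted p-values from edgeR. The deposited RPM values sum to 999655 and 999650, so the totals behind them (about 202629 and 111453 reads) are slightly larger than the table's. The table had 0 columns from other samples.

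Ratios of shares with exact conditional binomial intervals and log2 ratios (prior count 0.5, in proportion to depth) were computed from the counts in Python 3.11.15 with scipy 1.17.1. Ratios of ratios are odds ratios with exact conditional intervals. For a bound, 3 reads stood in for 0. Scalings tried were edgeR 4.0.16 TMM, DESeq2 1.42.0 size factors, and totals that leave out the 5 top miRNAs, miR-16-5p or the predictions, or take the totals behind the deposited RPM. The last, and joining miR-195-5p to miR-16-5p, were added after the data were seen. Named miRNAs were the members, their other arms and cluster partners, miRNAs of near seed, the 3 nearest to miR-16-5p in log2 ratio with at least 1000 reads, and marker lists. The members and lists were chosen with earlier results of these data known.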

Additional observations from a re-analysis of the deposited data

How the results depend on the processing

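Scaled by total reads, the summed ratio of the family was 1.10. Leaving miR-16-5p out of the totals gave 1.12, and leaving out the 5 most abundant miRNAs gave 1.20. TMM scaling gave 1.26 and DESeq2 scaling 1.33. A sum over the 5 less abundant members alone reversed the direction, at 0.773. Of these 5, miR-15b-5p alone had an interval below 1, and miR-195-5p went the other way, at 1.19 (0.423 to 3.82). The number of members with an interval below 1 went from 1 to 0 with TMM factors and to 0 with DESeq2 size factors, while 1 member stayed above 1 under each. The ratio of ratios of miR-16-5p, 1.43, was 1.70 against miR-424-5p alone, 1.17 against miR-497-5p alone and 0.930 against miR-195-5p alone, each resting on few reads. Of 36 alternatives for these results, 26 were counted as the same, 8 as moved and 2 as reversed. For ratios, the same means within the main counting interval. For the family median it means between the medians of the members' interval limits, a wide range. Its change from −0.22 to 0.06 with DESeq2 size factors was therefore counted as the same. The wider interval for 15 pairs, which leaves the value as it was, was also counted so. For single members, 37 of 42 stayed within the counting interval. With miR-195-5p added to miR-16-5p, the ratio of ratios was 1.44. No paired analysis was possible because each group has 1 library. No library could be left out. Few reads limit what can be said of miR-195-5p (19 in all) and miR-497-5p (30).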
